A study of Homo sapiens with 6 samples.

Results

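Ceramide and sphingolipid metabolism was examined in human SZ95 sebocytes through 39 genes, chosen by name for their enzymes, regulators and receptors, out of 27685 genes in the read count table. All 39 were found in the table and 36 had enough counts to be tested. SZ95 is a sebaceous gland line immortalized with the large T antigen of simian virus 40, so all samples come from a single immortalized line without the layers of skin around a gland. The 3 control samples received the vehicle, 20% ethanol, and the 3 PM2.5 samples received particulate matter at 100 μg/mL that had been resuspended in 20% ethanol, each for 24 h in phenol-red-free medium for which no serum is listed. PM2.5 was collected from outdoor air and is a mixture of metals, ions and carbon compounds. The genotype label is wild type in both groups. Polyadenylated RNA was sequenced once per sample.

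Sphingolipids are built on a long-chain base that serine palmitoyltransferase makes from serine and palmitoyl-CoA. Ceramide, the hub of the pathway, arises when ceramide synthases attach a fatty acid to that base and a desaturase adds a double bond, and it is turned into sphingomyelin, glucosylceramide or ceramide 1-phosphate. Ceramidases release sphingosine, which sphingosine kinases turn into sphingosine 1-phosphate (S1P), a signal read by cell surface receptors and removed by a lyase and by phosphatases. In skin, ceramides are major lipids of the outer barrier, and ceramide and S1P have opposing effects on growth and survival in many cell types.

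The control libraries held 62537562 to 70616698 counts and the PM2.5 libraries 56460553 to 71080000. Levels are given as CPM, counts for every 1000000 of the library after TMM scaling (trimmed mean of M-values). The 39 genes together took 0.205% to 0.214% of control counts and 0.196% to 0.206% of PM2.5 counts. No label states whether replicates were grown as separate cultures, and p-values therefore describe only how far these libraries spread, which could be technical. In RNA from a whole culture, fewer cells of a kind and less RNA per cell cannot be told apart. The sebaceous marker genes KRT7 and MUC1 stood at 1411 ± 48.6 and 115 ± 1.21 CPM in control (SD, n = 3), whereas the wax synthase genes AWAT1 and AWAT2 had no count in any library and the melanocortin receptor gene MC5R had none in control. The keratinocyte gene KRT5 stood at 233 ± 10.7 CPM in control, and the fibroblast genes COL1A2, PDGFRA and DCN at no more than 0.0334 CPM on average in either group, although COL1A1 of the same list stood at 43.6 ± 2.48 CPM. The melanocyte genes MLANA and TYR had no count, whereas PMEL stood at 13.1 ± 0.578 CPM in control. Of the leukocyte genes CD3E had no count, PTPRC stood at 0.0360 CPM on average in control and CD14 at 4.72 ± 0.104 CPM. Several markers moved with treatment. KRT7 stood at 1030 ± 146 CPM with PM2.5, and MUC1 fell with a log2 fold change of -0.14. The lipid synthesis genes FASN and SCD rose with log2 fold changes of 1.00 and 1.31, and the sebaceous marker PPARG with 0.49. The keratinocyte genes KRT14, at 4.26 CPM in control, and KRT10 fell with -1.50 and -0.36, and COL1A1 rose with 0.27. KRT5, far above both keratinocyte genes in level, had a log2 fold change of 0.11 (edgeR adjusted p = 0.173). That of the sebaceous marker PLIN2 was 0.09 (edgeR adjusted p = 0.524). The part of these marker changes in the values of the sphingolipid genes was not tested.

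Of the 36 tested members, 6 rose and 13 fell with PM2.5 at an edgeR adjusted p under 0.05, the threshold for a call throughout, and 17 did not pass. The called share was 52.8%, beside 43.6% of all 16049 tested genes. Genes called lower made up 36.1% of the members, beside 22.0% of all tested genes, and genes called higher 16.7%, beside 21.7%. The median log2 fold change was -0.11 over the tested members and 0.0042 over all tested genes, where a positive value means a higher level with PM2.5. This split leans on the scaling, as does that of all tested genes. With library size as the only scaling 10 members were higher and 10 lower, beside 4770 and 2546 of all tested genes. With upper-quartile scaling 9 members were higher and 12 lower, beside 4008 and 3036 of all tested genes. Most changes were small. Changes of at least 1.5-fold with a call were found in 6 members, 16.7% beside 13.1% of all tested genes, and these were ACER2, SMPD3 and SGPL1, which fell, and S1PR1, SGPP2 and S1PR3, which rose. In 26 of the 36 tested members all PM2.5 libraries lay on one side of all control libraries, 72.2% beside 56.3% of all tested genes.

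**Figure D1:**
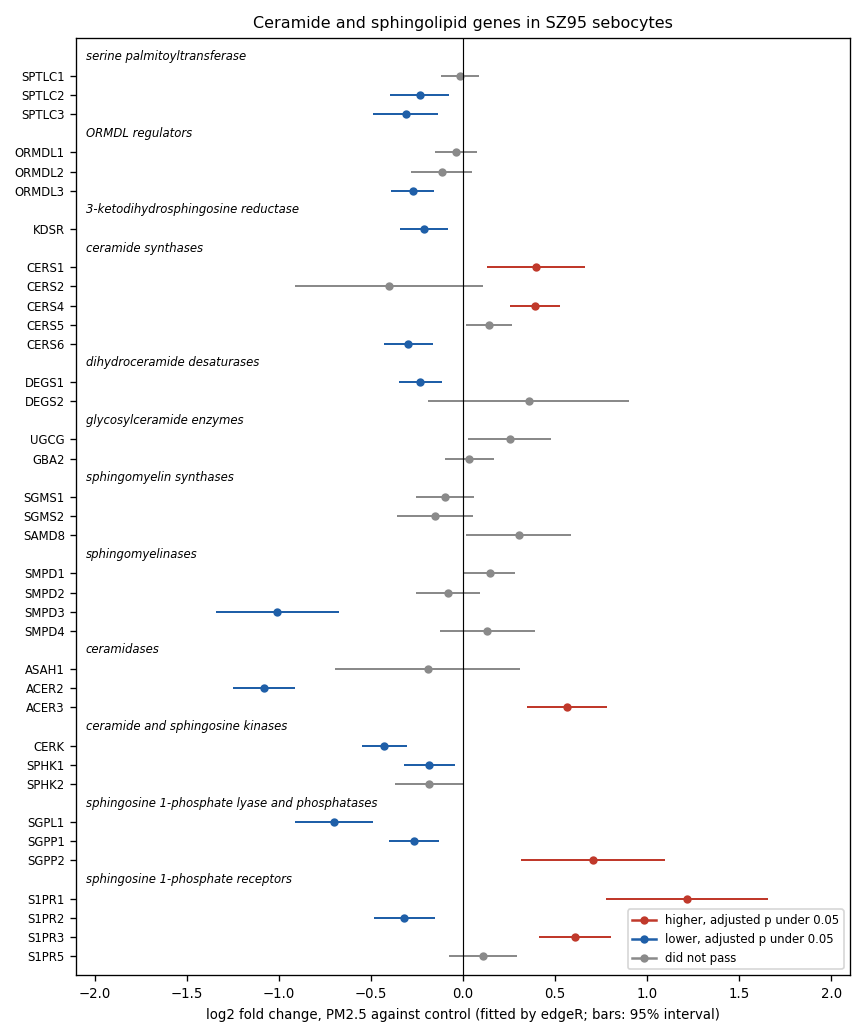
Fitted log2 fold change of PM2.5 against control for the 36 tested genes, grouped by role, with 95% intervals from 3 libraries per group; red points were higher and blue points lower at an edgeR adjusted p under 0.05, and grey points did not pass. ACER2 and SMPD3 lie farthest to the left and S1PR1 farthest to the right. CERS2 (-0.91 to 0.10), ASAH1 (-0.69 to 0.30) and DEGS2 (-0.18 to 0.90) have wide intervals that include zero.

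The sequences before the transcription start of 4 members are shown because these members had the largest fitted changes among those with an entry in the RefSeq promoter table of build GRCh38.p14, which held 32 of the 39. SMPD3 had no entry. Each line gives the 250 bases that end just before the start, 5′ to 3′, with capitals marking GCGTG on either strand (CACGC on the strand shown), the core of the element that the aryl hydrocarbon receptor binds.
S1PR1, chr1:101236769-101237018, plus strand: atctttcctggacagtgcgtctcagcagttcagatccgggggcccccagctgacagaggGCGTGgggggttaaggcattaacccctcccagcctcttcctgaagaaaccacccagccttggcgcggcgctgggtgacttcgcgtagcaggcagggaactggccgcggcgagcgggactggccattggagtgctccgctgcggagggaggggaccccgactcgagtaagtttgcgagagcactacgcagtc
SGPP2, chr2:222423738-222423987, plus strand: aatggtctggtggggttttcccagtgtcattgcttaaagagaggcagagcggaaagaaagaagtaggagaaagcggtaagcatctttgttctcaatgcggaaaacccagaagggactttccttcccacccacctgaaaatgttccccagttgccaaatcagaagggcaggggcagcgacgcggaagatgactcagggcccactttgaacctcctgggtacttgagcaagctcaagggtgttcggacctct
ACER2, chr9:19408759-19409008, plus strand: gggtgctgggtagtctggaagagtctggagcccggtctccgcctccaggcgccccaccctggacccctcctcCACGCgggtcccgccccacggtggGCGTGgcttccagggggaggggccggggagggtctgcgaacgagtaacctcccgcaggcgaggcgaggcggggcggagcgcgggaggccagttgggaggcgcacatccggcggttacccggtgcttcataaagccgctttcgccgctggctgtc
SGPL1, chr10:70815698-70815947, plus strand: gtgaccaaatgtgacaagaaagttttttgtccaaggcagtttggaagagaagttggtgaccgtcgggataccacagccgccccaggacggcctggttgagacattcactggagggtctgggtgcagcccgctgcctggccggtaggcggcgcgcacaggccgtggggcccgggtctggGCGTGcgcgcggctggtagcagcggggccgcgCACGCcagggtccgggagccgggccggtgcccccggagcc
S1PR1 and SGPP2 rose, and ACER2 and SGPL1 fell. The core began 191 bases before the start in S1PR1, 178 and 154 bases before it in ACER2, and 72 and 40 bases before it in SGPL1, and these letters were not in the SGPP2 window, so genes of both directions held it. GC content was 64.4%, 52.0%, 72.4% and 68.8% in S1PR1, SGPP2, ACER2 and SGPL1, respectively. Over 250 bases the core occurred in 20 of the 32 member promoters, 62.5%, and in 43.9% of the 12453 promoters of tested genes. The 32 include those of the untested CERS3, ACER1 and GALC, of which GALC held the core. A longer form, TNGCGTG, occurred in 4 of the 32, 12.5%, SGPL1 among them, and in 5.82% of the promoters of tested genes. The sterol regulatory element TCACNCCAC, read on both strands, occurred in 0 of the 32 and in 0.835% of the promoters of tested genes. A match describes letters only.

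The first step, serine palmitoyltransferase, showed lower levels of its catalytic subunits and no call for the shared one. SPTLC1, the subunit common to all forms of the enzyme, was at 149 ± 3.14 CPM in control and 148 ± 3.52 CPM with PM2.5 (SD, n = 3), with a log2 fold change of -0.01 and a 95% interval from -0.11 to 0.08. SPTLC2, the main catalytic subunit, fell from 207 ± 15.9 to 176 ± 10.0 CPM (edgeR adjusted p = 0.0233), and SPTLC3, the alternative catalytic subunit, fell from 16.2 ± 1.32 to 13.1 ± 0.223 CPM (edgeR adjusted p = 0.0109). The call of SPTLC2 was lost on leaving out control replicate 1, control replicate 2, PM2.5 replicate 1 or PM2.5 replicate 2 (adjusted p by edgeR = 0.06, 0.0722, 0.0909 and 0.126) and with library size as the only scaling (0.0986), and that of SPTLC3 without PM2.5 replicate 1 (0.0503). KDSR, the reductase of the next step, fell from 88.5 ± 3.67 to 76.4 ± 3.68 CPM (edgeR adjusted p = 0.0149), a call lost on leaving out control replicate 2, or either of PM2.5 replicates 1 and 2 (0.0516, 0.0868 and 0.0719) and with library size only (0.085).

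Among the ORMDL genes, whose proteins hold serine palmitoyltransferase back when ceramide is plentiful, ORMDL3 alone passed the test. ORMDL3 (Gene ID 94103) stood at 95.8, 94.4 and 96.2 CPM in the control libraries and at 75.8, 78.6 and 82.6 CPM in the PM2.5 libraries. Every PM2.5 library was below every control library, with a gap wider than the spread within either group. Its log2 fold change was -0.27 ± 0.048 (SE), at an edgeR adjusted p of 0.00273. ORMDL1 had a log2 fold change of -0.04 (95% interval -0.15 to 0.07) and ORMDL2 of -0.12 (95% interval -0.28 to 0.04). A difference between the ORMDL genes was not tested. ORMDL2 shares 41.2% of its exon bases with DNAJC14 on the opposite strand, and whether counting used the strand is not given in the sources used here.

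The ceramide synthases moved in both directions. These enzymes differ in the fatty acid they attach. CERS5 and CERS6 favour palmitic acid, CERS1 and CERS4 somewhat longer acids, CERS2 very long ones, and CERS3 the ultra-long ones of the epidermis. CERS4 (Gene ID 79603) was at 13.6, 13.5 and 14.0 CPM in control and at 17.7, 17.9 and 18.3 CPM with PM2.5. The groups were far apart relative to their spread, and CERS4 rose, its log2 fold change being 0.39 ± 0.057 (SE) with an edgeR adjusted p of 0.00118. CERS6 (Gene ID 253782) was at 151, 147 and 143 CPM in control and at 113, 127 and 118 CPM with PM2.5. All its PM2.5 libraries were lower, and CERS6 fell, its log2 fold change being -0.30 ± 0.054 (SE) with an edgeR adjusted p of 0.00345. CERS1 rose from 6.11 ± 0.517 to 8.04 ± 1.00 CPM (SD, n = 3, edgeR adjusted p = 0.0223), but the call was lost on leaving out either of control replicates 1 and 2 or of PM2.5 replicates 1 and 2 (0.0542, 0.0733, 0.0679 and 0.0618). CERS1 shares 67.1% of its exon bases with GDF1, a growth factor gene on the same strand that was given 170 counts in all libraries against 2726 for CERS1, so how reads were divided between them is uncertain. GDF1 rose as well, with a log2 fold change of 0.82. CERS5 was at 41.6 ± 1.14 CPM in control and 45.8 ± 1.70 CPM with PM2.5, with no overlap but an edgeR adjusted p of 0.0566. Without control replicate 3 or PM2.5 replicate 2 that p was 0.0358 and 0.0302, and it was 0.0226 with upper-quartile scaling, 0.00665 with library size only, 0.0449 without a filter and 0.0283 with a mean count of at least 50. CERS3 had 2 counts in the control libraries together and 12 in the PM2.5 libraries and was not tested.

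CERS2, the ceramide synthase with the highest level per length, was far higher in 1 control library than in the rest. It stood at 108, 104 and 195 CPM in control and at 97.8, 102 and 109 CPM with PM2.5. Control replicate 3 was above every other library by a wide margin, and the other 5 libraries lay close together. The log2 fold change was -0.40 (95% interval -0.91 to 0.10, edgeR adjusted p = 0.174) with all libraries and -0.04 without control replicate 3. In all, 15 of 14092 tested genes with a mean count of at least 50 were more than 1.5 times higher in control replicate 3 than in each other library, CERS2 among them, and the number was 7 to 15 for the other libraries. SETDB1, whose exons overlap 11.6% of the CERS2 exon bases on the opposite strand, was at 80.2 CPM in control replicate 3 and at 72.0 to 84.6 CPM in the others. AL590133.2, an antisense gene, overlaps 19.2% of the CERS2 exon bases and was not found by symbol among the genes counted. The part of either gene in the CERS2 counts was not tested. ASAH1, the lysosomal acid ceramidase, was also highest in control replicate 3, with 117, 115 and 182 CPM in control and 133, 88.9 and 140.0 CPM with PM2.5. Its groups overlapped, and its log2 fold change of -0.19 (95% interval -0.69 to 0.30) was 0.058 without control replicate 3 and 0.0044 without PM2.5 replicate 2. The coefficients of variation in control were 38.0% for CERS2 and 27.8% for ASAH1, where the median over those 14092 genes was 6.03%.

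**Figure D2:**
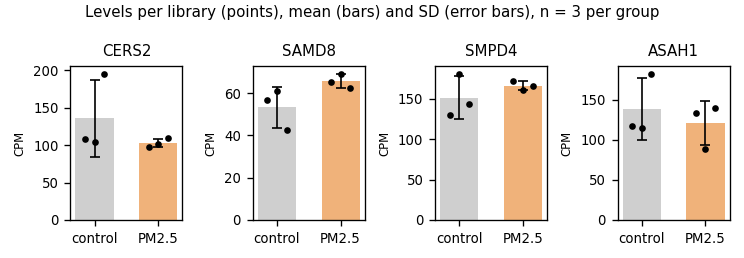
Levels in CPM of CERS2, SAMD8, SMPD4 and ASAH1, chosen among the members whose control libraries varied widely. Points are single libraries, bars the mean and error bars the SD of 3 libraries. SGPP2 and DEGS2, not in this plot, had control coefficients of variation of 23.7% and 20.6%, beside 18.1% for SAMD8 and 17.4% for SMPD4. Control replicate 3 is the rightmost control point in each panel, at 195 CPM for CERS2 and 182 CPM for ASAH1.

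DEGS1, the desaturase that turns dihydroceramide into ceramide, fell, while DEGS2, which can also hydroxylate, was at a far lower level and did not pass. DEGS1 (Gene ID 8560) was at 73.3, 77.3 and 76.5 CPM in control and at 65.5, 62.3 and 65.7 CPM with PM2.5. The groups did not overlap, with a log2 fold change of -0.23 ± 0.047 (SE) and an edgeR adjusted p of 0.00568. DEGS2 was at 0.831 ± 0.171 CPM in control and 1.07 ± 0.239 CPM with PM2.5 (SD, n = 3), with a 95% interval of the log2 fold change from -0.18 to 0.90.

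No gene that turns ceramide into glucosylceramide or sphingomyelin passed the test. UGCG, the glucosylceramide synthase, was at 135, 130.0 and 107 CPM in control and at 157, 134 and 153 CPM with PM2.5, so a control library overlapped the lowest PM2.5 library. Its log2 fold change was 0.25 (95% interval 0.03 to 0.47, edgeR adjusted p = 0.0633), and the adjusted p was 0.0487 without control replicate 1, 0.0205 with DESeq2's Wald test, 0.0414 with upper-quartile scaling and 0.0256 with library size only. SGMS1 and SGMS2, the sphingomyelin synthases of the Golgi and of the plasma membrane, had log2 fold changes of -0.10 (95% interval -0.25 to 0.05) and -0.15 (95% interval -0.36 to 0.05), and SGMS2 passed without control replicate 3 (edgeR adjusted p = 0.0243). SAMD8, which makes ceramide phosphoethanolamine, was at 56.5, 60.8 and 42.4 CPM in control and at 65.4, 69.1 and 62.3 CPM with PM2.5. All its PM2.5 libraries were above control, but control replicate 3 stood apart, and the log2 fold change of 0.30 had an edgeR adjusted p of 0.0766. Without control replicate 2 the adjusted p of SAMD8 was 0.0348, with DESeq2's Wald test 0.0205 and with library size only 0.0417. GBA2, a glucosylceramidase outside the lysosome, had a log2 fold change of 0.03 (95% interval -0.09 to 0.16). GALC, the galactosylceramidase, had no count in control and 5 in the PM2.5 libraries together and was not tested.

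Of the sphingomyelinases, which release ceramide from sphingomyelin, SMPD3 alone passed the test. SMPD3 (Gene ID 55512), a neutral sphingomyelinase of the Golgi and plasma membrane, was at 2.53, 2.99 and 3.12 CPM in control and at 1.54, 1.52 and 1.21 CPM with PM2.5. The groups did not overlap. SMPD3 fell 2.01-fold, with a log2 fold change of -1.01 ± 0.14 (SE) and an edgeR adjusted p of 0.00107. PRMT7, on the opposite strand, covers 4.20% of the SMPD3 exon bases and had 18007 counts in all libraries against 829 for SMPD3, and without knowledge of the strand setting reads of the pair in the shared bases cannot be told apart. PRMT7 fell with a log2 fold change of -0.26. The acid sphingomyelinase SMPD1 had a log2 fold change of 0.15 (95% interval 0.01 to 0.28, edgeR adjusted p = 0.0743) and passed with upper-quartile scaling, library size only and a mean count of at least 50. The neutral enzymes SMPD2 and SMPD4 had log2 fold changes of -0.08 (95% interval -0.25 to 0.09) and 0.13 (95% interval -0.12 to 0.38), and SMPD4 passed without control replicate 2 (edgeR adjusted p = 0.0136). SMPD2 shares 24.9% of its exon bases with PPIL6 and SMPD4 13.2% with MZT2B, each on the opposite strand, so the same limit holds for them.

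The alkaline ceramidases, which split ceramide into sphingosine and a fatty acid, went in opposite directions. ACER2 (Gene ID 340485), the ceramidase of the Golgi, was at 41.1, 41.6 and 45.0 CPM in control and at 18.8, 19.8 and 21.7 CPM with PM2.5. The highest PM2.5 library was below the lowest control library by a wide gap. ACER2 fell 2.12-fold, with a log2 fold change of -1.08 ± 0.07 (SE) and an edgeR adjusted p of 5.04e-05, the smallest p among the members. ACER3 (Gene ID 55331), which acts on ceramides with unsaturated long-chain fatty acids, was at 31.5, 37.6 and 29.5 CPM in control and at 45.3, 50.4 and 49.9 CPM with PM2.5. Its PM2.5 libraries were all higher, with a log2 fold change of 0.56 ± 0.092 (SE) and an edgeR adjusted p of 0.00204. The 95% intervals of the fold changes, -1.24 to -0.92 for ACER2 and 0.35 to 0.78 for ACER3, lie on either side of zero. ACER1, the ceramidase of the epidermis, had no count in control, which allows up to 3 counts per library by counting error alone, and 3 in the PM2.5 libraries together, and was not tested.

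The kinases of the pathway were lower or did not pass. CERK (Gene ID 64781), which makes ceramide 1-phosphate, was at 122, 114 and 122 CPM in control and at 89.8, 85.5 and 91.2 CPM with PM2.5. The groups were well separated, and CERK fell 1.34-fold with a log2 fold change of -0.43 ± 0.05 (SE) and an edgeR adjusted p of 0.000474. SPHK1, the cytoplasmic sphingosine kinase, fell from 21.2 ± 0.393 to 18.6 ± 0.810 CPM (SD, n = 3), or by 0.18 on the log2 scale (edgeR adjusted p = 0.0352). This call was lost on leaving out any control library (0.0771, 0.0681 and 0.0607), on leaving out PM2.5 replicate 1 or PM2.5 replicate 2 (0.13 and 0.0923), with upper-quartile scaling (0.0685) and with library size only (0.175). SPHK2, the other sphingosine kinase, had a log2 fold change of -0.19 (95% interval -0.37 to -0.01, edgeR adjusted p = 0.087), and it passed without PM2.5 replicate 3 (0.0198). On the opposite strand, SPHK2 shares 14% of its exon bases with DBP, 11.7% with AC022154.1 and 5.23% with RPL18. RPL18 had 144438 counts in all libraries against 6631 for SPHK2. Without knowledge of the strand setting, reads in the shared bases cannot be told apart.

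All 3 members of S1P removal passed the test, where 43.6% of all tested genes did, and the lyase had a larger fitted fall than the phosphatase SGPP1. SGPL1 (Gene ID 8879), the lyase that cleaves S1P irreversibly at the exit of the pathway, was at 147, 154 and 171 CPM in control and at 92.9, 88.4 and 109.6 CPM with PM2.5. The highest PM2.5 library stayed below the lowest control library. SGPL1 fell 1.62-fold, with a log2 fold change of -0.70 ± 0.09 (SE) and an edgeR adjusted p of 0.000695. SGPP1 (Gene ID 81537), an S1P phosphatase of the endoplasmic reticulum, was at 94.5, 87.2 and 82.9 CPM in control and at 72.6, 73.6 and 73.6 CPM with PM2.5. Its PM2.5 libraries were almost level with each other and below control, with a log2 fold change of -0.27 ± 0.056 (SE) and an edgeR adjusted p of 0.00632. SGPP2 (Gene ID 130367), its paralog, was at 1.79, 1.98 and 2.76 CPM in control and at 3.83, 3.65 and 3.21 CPM with PM2.5. The groups did not overlap though control replicate 3 came near, and SGPP2 rose 1.63-fold with a log2 fold change of 0.70 ± 0.17 (SE) and an edgeR adjusted p of 0.0108. Per kilobase of transcript, the level of SGPP1 in control was 26.6 ± 1.78 CPM and that of SGPP2 0.653 ± 0.155 CPM (SD, n = 3), so the phosphatase that rose was the scarcer one.

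The S1P receptors, which couple to G proteins, also moved in both directions. S1PR1 (Gene ID 1901), known for its part in the traffic of lymphocytes and in blood vessels, was at 0.558, 0.543 and 0.676 CPM in control and at 1.56, 1.42 and 1.16 CPM with PM2.5. Every PM2.5 library was above every control library at these low levels. S1PR1 rose 2.33-fold, with a log2 fold change of 1.22 ± 0.19 (SE) and an edgeR adjusted p of 0.00159. S1PR3 (Gene ID 1903) was at 6.22, 5.45 and 6.07 CPM in control and at 9.45, 8.82 and 8.78 CPM with PM2.5. Its groups were clearly apart, with a log2 fold change of 0.61 ± 0.083 (SE) and an edgeR adjusted p of 0.000879. S1PR2 fell from 16.4 ± 0.820 to 13.2 ± 0.724 CPM (SD, n = 3, edgeR adjusted p = 0.00794), and S1PR5 had a log2 fold change of 0.11 (95% interval -0.07 to 0.29). Per kilobase of transcript the order of the receptors in control was S1PR2 with 4.58 ± 0.229 CPM, S1PR5 with 3.98 ± 0.306 CPM, S1PR4, of the further list, with 1.85 ± 0.120 CPM, S1PR3 with 1.41 ± 0.0980 CPM and S1PR1 with 0.204 ± 0.0250 CPM. The gap between S1PR2 and S1PR5 was only slightly wider than the sum of their SDs, while the other neighbours differed by more than that. With PM2.5 the values were 3.67 ± 0.202 CPM for S1PR2, 4.30 ± 0.0859 CPM for S1PR5, 2.31 ± 0.207 CPM for S1PR4, 2.14 ± 0.0901 CPM for S1PR3 and 0.475 ± 0.0690 CPM for S1PR1.

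**Figure D3:**
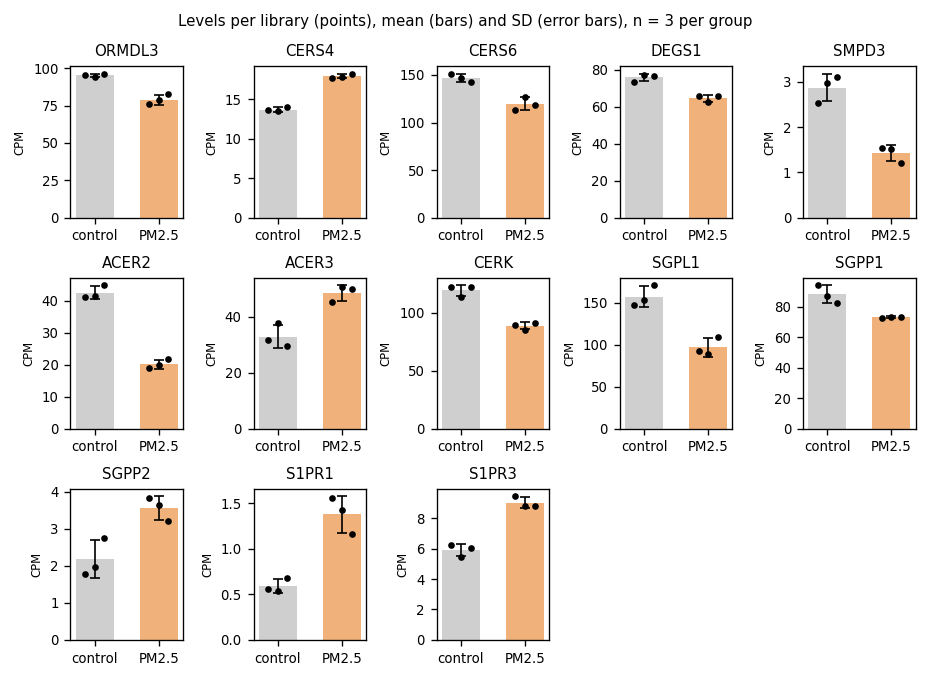
Levels in CPM of the 13 members that passed the test with a change of at least 1.5-fold or one of the 12 smallest p-values; points are single libraries, bars the mean and error bars the SD of 3 libraries per group. In each panel all PM2.5 points lie on one side of all control points, for example 18.8 to 21.7 CPM against 41.1 to 45.0 CPM for ACER2.

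Levels across the pathway were compared per kilobase of transcript for the 38 members with a matched transcript length. In control the highest were SPTLC1 with 78.8 ± 1.66 CPM per kilobase, ASAH1 with 54.9 ± 15.3, CERS2 with 53.8 ± 20.5, ORMDL3 with 45.2 ± 0.462 and SMPD4 with 41.7 ± 7.27 (SD, n = 3). ASAH1, CERS2, ORMDL3 and SMPD4 do not differ from each other beyond these spreads. Of the sphingomyelin synthases SGMS2, with 24.7 ± 2.93 CPM per kilobase, was above SGMS1, with 3.33 ± 0.128. Members that had few reads were ACER1, GALC and CERS3, so the epidermal ceramidase and the ceramide synthase of ultra-long acids were at or near the floor in these cells.

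Ratios of a pair of members within each library do not depend on scaling and were compared for 5 pairs. An exact permutation test of 3 against 3 libraries cannot go below p = 0.1, and 2 pairs reached it, with p = 0.25 after adjustment over the 5. The log2 ratio of SPHK1 to SGPL1, synthesis against cleavage of S1P, was -2.81, -2.88 and -2.99 in control and -2.38, -2.24 and -2.50 with PM2.5. No library overlapped, and the ratio was higher with PM2.5 by 0.52 on the log2 scale. Both genes were lower with PM2.5, with log2 fold changes of -0.18 for SPHK1 and -0.70 for SGPL1. SPHK2, at 18.4 CPM in control beside 21.2 CPM for SPHK1, is left out of this ratio. The ratio thus does not stand for S1P synthesis as a whole. For UGCG to SGMS1, the log2 ratio was 3.38, 3.42 and 3.13 in control and 3.70, 3.56 and 3.73 with PM2.5, a difference of 0.35. This sets glucosylceramide synthesis against the sphingomyelin synthase of the Golgi only. SGMS1 had a lower level per length than SGMS2, so the ratio does not stand for sphingomyelin synthesis as a whole. The other pairs overlapped. The difference was -0.07 for SPTLC3 to SPTLC2 (exact permutation p = 0.4), -0.05 for SGMS2 to SGMS1 (exact permutation p = 0.9) and 0.04 for CERS6 to CERS2 (exact permutation p = 1), and the last was -0.28 without control replicate 3.

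A further 39 genes that transport, extend or break down sphingolipids were listed beside the members, and 35 of them were tested. With PM2.5, 12 were higher and 11 lower, 65.7% called beside 43.6% of all tested genes, and 34.3% were called higher and 31.4% lower. PLPP3 (Gene ID 8613), a cell surface phosphatase that removes phosphate from S1P and lysophosphatidic acid, had the smallest p. It was at 68.7, 67.1 and 75.4 CPM in control and at 22.2, 19.0 and 23.7 CPM with PM2.5. PLPP3 thus fell 3.26-fold, with a log2 fold change of -1.70 ± 0.089 (SE) and an edgeR adjusted p of 2.4e-05. Its paralog PLPP2 fell (log2 fold change -0.29) and PLPP1 rose (0.51). Of the PLPP3 exon bases 17.5% are shared with AC119674.2 on the same strand, and of the PLPP1 exon bases 27% with MTREX on the opposite strand. Neither partner was found by symbol among the genes counted, so their levels could not be compared. SPNS2 (Gene ID 124976), the exporter of S1P, was at 100.9, 101 and 97.9 CPM in control and at 78.6, 75.5 and 74.2 CPM with PM2.5. SPNS2 fell, its log2 fold change being -0.39 ± 0.045 (SE) with an edgeR adjusted p of 0.000409. ALDH3A2, which oxidizes the aldehyde that the lyase releases, rose (log2 fold change 0.26), and the receptor gene S1PR4 rose (0.32, edgeR adjusted p = 0.0454). The call of S1PR4 was lost without any single library but PM2.5 replicate 1 (0.0724 to 0.132), with DESeq2's Wald test (0.0857), limma-voom (0.0565) and edgeR's older fit (0.0567).

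Genes that make galactosylceramide, or build glycosphingolipids on it or on glucosylceramide, rose in 4 of 7 tested cases and fell in 1. These shares were 57.1% and 14.3%, beside 21.7% and 22.0% of all tested genes. B4GALT6 (Gene ID 9331), a lactosylceramide synthase, was at 1.43, 1.71 and 1.73 CPM in control and at 3.65, 3.95 and 3.02 CPM with PM2.5. It rose 2.18-fold with a log2 fold change of 1.13 ± 0.14 (SE) and an edgeR adjusted p of 0.000662, while B4GALT5, which encodes the same activity, was at 765 ± 34.6 CPM in control and had a log2 fold change of -0.03 (95% interval -0.14 to 0.08). B4GALNT1 (Gene ID 2583), the synthase of the gangliosides GM2 and GD2, was at 5.22, 4.79 and 5.48 CPM in control and at 7.70, 8.17 and 8.97 CPM with PM2.5. The groups did not overlap, and B4GALNT1 rose, its log2 fold change being 0.68 ± 0.092 (SE) with an edgeR adjusted p of 0.000892. ST3GAL5, the GM3 synthase, and UGT8, the galactosylceramide synthase, rose with log2 fold changes of 0.75 and 0.46, and A4GALT, the globotriaosylceramide synthase, fell with -0.35. B3GALT4 had a log2 fold change of 0.09 (95% interval -0.05 to 0.24).

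PSAP (Gene ID 5660), the precursor of the saposins that help lysosomal enzymes reach sphingolipids, was at 2944, 2801 and 3174 CPM in control and at 2063, 2069.5 and 2213 CPM with PM2.5. PSAP fell 1.41-fold with a log2 fold change of -0.49 ± 0.059 (SE) and an edgeR adjusted p of 0.000518. The sphingomyelinase-like genes SMPDL3A and SMPDL3B fell (log2 fold changes -0.36 and -0.37), whereas the activator GM2A (0.20), the arylsulfatase ARSA (0.22) and the sialidases NEU1 (0.33) and NEU3 (0.25) rose. HEXA, a hexosaminidase subunit, had a log2 fold change of -0.03 (95% interval -0.13 to 0.07). Of the transfer proteins GLTP fell (-0.28), CPTP fell (-0.35) and PLEKHA8 rose (0.25), and the ceramide transporter COL4A3BP did not pass (0.11, 95% interval -0.19 to 0.40). SPTSSB, a small subunit of serine palmitoyltransferase, fell with -0.60 from 2.27 ± 0.325 CPM (SD, n = 3), and the fatty acid hydroxylase FA2H fell with -0.31. SPTSSA, GLA, GLB1, ABCA12, PNPLA1, ELOVL1, ELOVL4 and MFSD2B did not pass, and GAL3ST1, ST8SIA1, GBA3 and CYP4F22 had too few counts to be tested. Leaving out a library ended 6 of these calls, with edgeR adjusted p up to 0.0654 for SPTSSB, 0.0769 for PLEKHA8, 0.0661 for ARSA, 0.0575 for NEU3, 0.0547 for SMPDL3A and 0.0613 for SMPDL3B. The libraries were control replicate 2 and PM2.5 replicate 2 for SPTSSB, control replicate 1 and PM2.5 replicates 1 and 2 for PLEKHA8, PM2.5 replicates 1 and 3 for ARSA, control replicate 1 and PM2.5 replicate 1 for NEU3, control replicates 2 and 3 and PM2.5 replicate 3 for SMPDL3A, and PM2.5 replicates 1 and 2 for SMPDL3B.

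**Figure D4:**
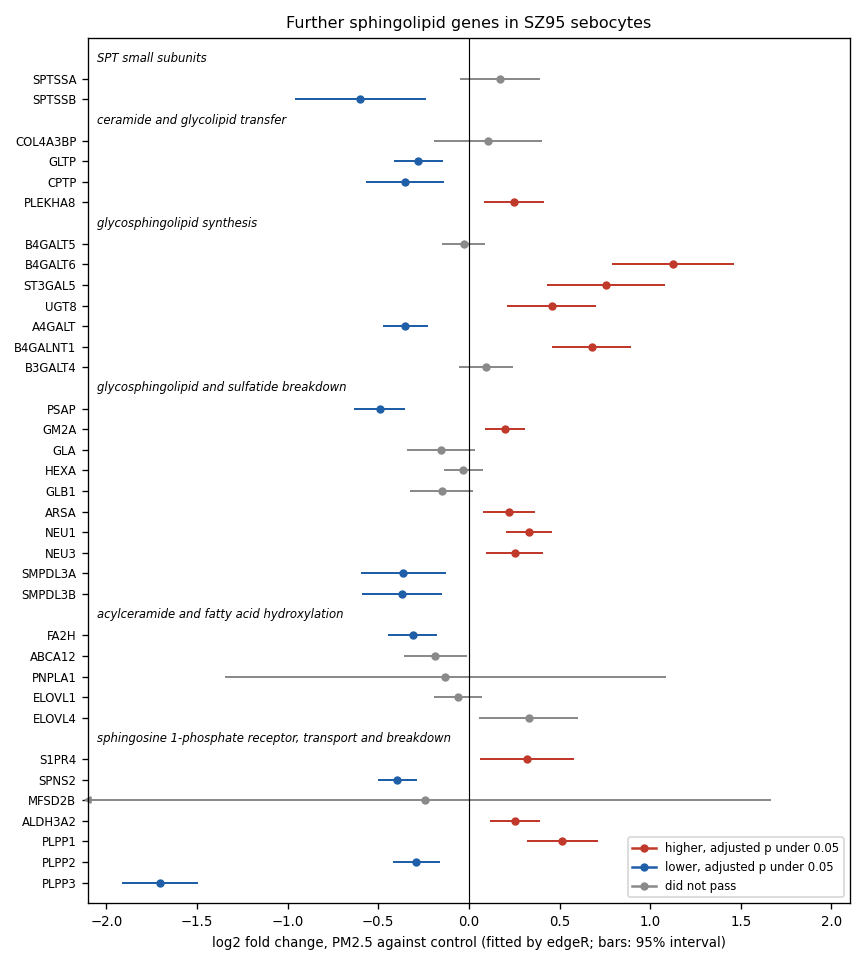
Fitted log2 fold change of PM2.5 against control for the 35 tested genes of the further sphingolipid list, grouped by role, with 95% intervals from 3 libraries per group and the colours of the plot of members; the arrowhead marks an interval that runs past the axis. PLPP3 lies farthest to the left at -1.70 and B4GALT6 farthest to the right at 1.13.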

How the data were processed

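Polyadenylated RNA of 3 control and 3 PM2.5-treated samples was sequenced from libraries made with a stranded mRNA kit. The deposited values are read counts per gene, whole numbers that the authors did not normalize. Per the labels, reads were processed with Trimmomatic 0.32, HISAT2 2.0.5, StringTie 1.3.3b and DESeq2 on hg19. How reads were counted, and with which strand setting, is not given in the sources used here. The column read as PM2.5 replicate 1 differs from the label by an added hyphen. Of 27685 genes, 7274 had no count, and 16049 passed edgeR's filterByExpr (minimum count 10, minimum total 15). Counts were TMM-scaled and tested two-sided with edgeR 4.0.16 (R 4.3.3), glmQLFit without its legacy option and glmQLFTest, treatment as the only factor, with Benjamini-Hochberg adjustment over all tested genes. SE is the absolute log2 fold change over the square root of F. The fitting was tested on simulated data. DESeq2 1.42.0 and limma 3.58.1 (voom), other scalings and filters, a replicate block and leaving out each library were alternatives.

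Members and lists were chosen with earlier results of these data known, and 1 gene was left out of the further list and is not reported here. Every member is named; values of each library are given for called members with a 1.5-fold change or one of the 12 smallest p-values, and for 5 further genes. CERS2, ASAH1, UGCG and SAMD8, whose libraries are also given, SMPD4, whose libraries are plotted, and the promoters shown, were chosen after their values were seen. Transcript lengths (the median over matched RefSeq transcripts) and exon overlaps are from GENCODE 29 on GRCh38 and promoters from RefSeq on GRCh38.p14, a build other than that of the counts; promoters and lengths were joined by gene ID and transcript accession, overlaps by symbol.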

Additional observations from a re-analysis of the deposited data

How the results depend on the processing

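Each call was recomputed under 15 alternatives. Of the 19 called members, 14 passed in all 15, 5 lost the call in at least 1 (SPTLC2, SPTLC3, KDSR, CERS1 and SPHK1), and none changed direction; 7 of the 17 others passed in at least 1. With library size as the only scaling, 10 members were higher in place of 6. That scaling also gave 4770 higher and 2546 lower of all tested genes, in place of 3476 and 3523. Leaving out a library gave 5 to 7 higher and 9 to 14 lower members, 9 to 11 higher and 9 to 11 lower further genes, and 2712 to 3305 higher and 2613 to 3448 lower genes in all. Whether the replicate numbers pair the samples is not given in the sources used here. The correlation of the deviations of same-numbered libraries was -0.00316, 0.0793 and 0.0888, beside -0.134 to 0.0589 for libraries of unlike number. Replicates 2 and 3 correlated best with their own number, and replicate 1 did not. With the replicate block 8 members were higher and 14 lower, beside 3573 and 3658 of all tested genes. CERS5, SAMD8 and SPHK2 then passed (edgeR adjusted p = 0.0449, 0.0248 and 0.0487). Of the further genes, ELOVL4 passed with the block and S1PR4 lost its call (edgeR adjusted p = 0.0419 and 0.0741).

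Genes that did not pass changed sign as follows, as log2 fold changes. With upper-quartile scaling SPTLC1 was at 0.023, B4GALT5 at 0.0067 and HEXA at 0.0049. With library size only SPTLC1 was at 0.067, ORMDL1 at 0.044, B4GALT5 at 0.051, HEXA at 0.050 and ELOVL1 at 0.019. With limma-voom PNPLA1 was at 0.098 and MFSD2B at 0.83, and with a mean count of at least 50 SPTLC1 was at 0.0032. Leaving out a library gave -0.032 to 0.0075 for SPTLC1, -0.31 to 0.058 for ASAH1, -0.068 to 0.0018 for B4GALT5, -0.49 to 0.64 for PNPLA1 and -0.87 to 0.33 for MFSD2B. The log2 ratio differences ran from -0.13 to -0.03 for SPTLC3 to SPTLC2, -0.13 to 0.049 for SGMS2 to SGMS1, 0.27 to 0.41 for UGCG to SGMS1, 0.45 to 0.58 for SPHK1 to SGPL1 and -0.28 to 0.20 for CERS6 to CERS2. The cause of these changes was not tested.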
